A study of Drosophila melanogaster with 2 samples.

Results

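Binding of the transcription factor Lim3 was mapped by chromatin immunoprecipitation and sequencing, and the peaks described here lay deep inside introns. A peak was taken as distal intronic when its summit fell inside the span of a gene, in no annotated exon, and more than 2500 bp from the nearest transcript start of any gene. Of the 1500 peaks in the larger of the lists that the authors made from both libraries, 1445 lay on the 7 chromosome arms, and 250 of these were distal intronic. The other listed arm peaks were 670 within 500 bp of a start (promoter), 268 intronic peaks nearer to a start, 199 intergenic peaks and 58 exonic peaks. The material was whole Drosophila melanogaster embryos of 8 to 24 h from the strain Lim3-GFP, whose source label names an insertion targeting Lim3 and whose flies made Lim3 fused to eGFP. The age is that of the source label, since a separate age label gives a value far beyond embryonic life. Chromatin was sheared by sonication. The description names an anti-GFP antibody for the precipitation, while the antibody label itself reads Lim3. There was 1 group, of 2 biological replicates, and both carried the same fusion. Whole embryos pool every tissue, so a site bound in few cells and a site bound weakly in many cannot be told apart. The labels name a control experiment, and no control library was analysed here. A peak's signal is the authors' own value within 1 list, read depth is unknown, and listed peaks are those the authors kept by their irreproducible discovery rate (IDR).

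Lim3 belongs to the LIM-homeodomain family, whose members carry a pair of LIM domains that bind cofactors and a homeodomain that contacts AT-rich DNA with the core TAATTA. In the fly nerve cord Lim3 is known for its part, together with Islet (tup) and Hb9 (exex), in the combinations of factors that distinguish classes of motor neurons. Introns of fly genes commonly hold enhancers, and a distal intronic site need not act on the gene that surrounds it.

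The windows of 200 bp around the summits of the strongest distal intronic peaks show the sequence that the results below describe. The 6 windows shown are those of the strongest peaks, outside the arm whose sequences are not printed, that were in the thresholded lists of both replicates. Sequences are the plus strand of release 6 of the fly genome (dm6), 5′ to 3′, and capitals mark TAATTA, or ACAGTG on either strand (then read as CACTGT when it lies on the minus strand).
CG32486, chr3L:3060723-3060922: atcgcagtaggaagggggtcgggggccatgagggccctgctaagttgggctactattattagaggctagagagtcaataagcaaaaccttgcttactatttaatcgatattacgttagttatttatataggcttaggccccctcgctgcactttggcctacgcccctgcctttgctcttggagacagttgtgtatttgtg
aos, chr3L:16480470-16480669: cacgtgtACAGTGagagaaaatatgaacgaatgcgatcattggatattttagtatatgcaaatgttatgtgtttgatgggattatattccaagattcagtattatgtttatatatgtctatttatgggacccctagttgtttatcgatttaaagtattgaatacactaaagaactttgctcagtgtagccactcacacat
Gug, chr3L:8458224-8458423: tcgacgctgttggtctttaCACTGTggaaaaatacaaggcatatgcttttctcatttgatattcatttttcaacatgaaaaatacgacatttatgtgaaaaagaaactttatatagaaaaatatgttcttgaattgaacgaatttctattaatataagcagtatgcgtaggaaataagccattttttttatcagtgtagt
Hr4, chrX:1963847-1964046: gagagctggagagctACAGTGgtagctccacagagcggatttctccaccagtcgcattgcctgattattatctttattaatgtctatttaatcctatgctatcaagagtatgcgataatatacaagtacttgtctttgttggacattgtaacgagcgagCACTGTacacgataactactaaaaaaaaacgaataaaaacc
CG32264, chr3L:3785162-3785361: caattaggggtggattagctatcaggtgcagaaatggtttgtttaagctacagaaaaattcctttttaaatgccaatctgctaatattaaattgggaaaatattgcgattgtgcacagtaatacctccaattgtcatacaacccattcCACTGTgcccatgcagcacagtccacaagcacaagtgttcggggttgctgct
JIL-1, chr3L:11084673-11084872: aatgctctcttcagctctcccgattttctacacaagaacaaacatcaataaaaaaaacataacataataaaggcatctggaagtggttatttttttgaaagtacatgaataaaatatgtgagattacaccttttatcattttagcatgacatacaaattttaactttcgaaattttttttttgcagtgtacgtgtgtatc
The windows of aos, Gug and CG32264 held ACAGTG once, that of Hr4 held it at 2 places, and those of CG32486 and JIL-1 did not hold it. TAATTA was in none of the 6.

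ACAGTG was the hexamer with the smallest p between listed and unlisted distal intronic peaks. The 10 strongest peaks with it, outside the same arm, are shown in the orientation of the word, which stands in capitals with 17 bases on either side. Where a window held it more than once, the copy nearest to the summit is shown.
aos, chr3L:16480460-16480499, plus strand: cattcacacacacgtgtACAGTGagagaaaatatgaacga
Gug, chr3L:8458226-8458265, minus strand: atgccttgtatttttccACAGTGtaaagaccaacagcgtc
Hr4, chrX:1963989-1964028, minus strand: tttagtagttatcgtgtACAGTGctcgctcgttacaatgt
CG32264, chr3L:3785293-3785332, minus strand: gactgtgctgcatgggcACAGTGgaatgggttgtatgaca
mnb, chrX:17880522-17880561, minus strand: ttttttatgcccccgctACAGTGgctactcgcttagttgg
CHES-1-like, chrX:7700325-7700364, minus strand: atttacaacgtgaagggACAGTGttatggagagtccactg
CG8034, chrX:19289425-19289464, plus strand: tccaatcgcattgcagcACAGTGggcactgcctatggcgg
rdx, chr3R:14018085-14018124, minus strand: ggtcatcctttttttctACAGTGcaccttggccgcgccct
ed, chr2L:4081072-4081111, minus strand: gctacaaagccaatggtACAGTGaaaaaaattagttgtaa
rdx, chr3R:14012628-14012667, plus strand: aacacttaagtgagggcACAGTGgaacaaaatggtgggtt
The base that followed the word was G in 47.5% of the 59 distal intronic peaks that held it, against 33.2% of the 2951 unlisted distal intronic peaks that held it and 48.1% of the 258 other listed peaks. The base at the second place before it was G in 49.2%, against 28.5% and 48.4%. The base just before it was C in 37.3%, against 31.3% of the unlisted and 45.3% of the other listed peaks with the word. It was T in 32.2%, against 22.2% and 32.6%.

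The strongest distal intronic peak lay in an intron of Hr3, which encodes a nuclear receptor of the ecdysone response (2R, 10219971 to 10220188). Its signal in the larger list was 394, the ranked lists of replicates 1 and 2 gave it 188 and 207, and the summit also lay within the spans of CG12912 and CG46321. The next lay in the first intron of CG32486 (3L, 3060702 to 3060908), with a signal of 389 in the larger list and of 185 and 204 in replicates 1 and 2. Both were high in each replicate. The third lay in the first intron of aos (3L, 16480496 to 16480650), which encodes a secreted inhibitor of the epidermal growth factor receptor (EGFR), and had signals of 244, 140 and 101 in the same order (larger list, replicate 1, replicate 2), the order used below.

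The next strongest peaks lay in genes of various known roles. Gug, an Atrophin co-repressor, had a peak with signals of 242, 111 and 129, and JIL-1, a histone H3 kinase, had one with 196, 106 and 89.1. Hr4, another nuclear receptor, had one with 213, 98.2 and 124, and sbb, a nuclear co-regulator of transcription, one with 184, 93.2 and 96.1. These 4 peaks were in both replicates' thresholded lists. A peak of simj, a subunit of the NuRD chromatin complex, had 242, 26.9 and 83.6, and one of Su(Tpl), which encodes the elongation factor ELL, had 223 and 125 with no ranked peak of replicate 1 over it. These last peaks were in the thresholded list of replicate 2 alone, and they stood at ranks 268 and 112 in that replicate's ranked list.

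Raf, a kinase downstream of Ras, had a peak with signals of 192, 104 and 88.1, and mnb, a kinase of the DYRK family, one with 180, 109 and 73.1. The peak of rl, the ERK kinase downstream of Raf, had 180 and 151, and no ranked peak of replicate 2 lay over it. It was the one among the 15 that was in the list of replicate 1 alone. CG32264 (signals 197, 82.7 and 118), CG9328 (193, 102 and 90.8) and Dys, the dystrophin gene (170, 88.0 and 85.1), completed the 15, of which 12 were in both replicates' lists.

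Listed peaks fell at such places less often than ranked peaks at large. Distal intronic peaks were 250 of the 1445 listed arm peaks (17.3%), against 38487 of the 137764 ranked peaks that overlapped no listed peak (27.9%), an odds ratio of 0.540 (95% interval 0.471 to 0.619, two-sided Fisher's exact test, p = 6.74e-21). Peaks are counted here and are not replicates, so this and the following tests cover the counting of peaks. The direction and the call were the same in the lists of either replicate, at 13.6% for replicate 1 and 16.4% for replicate 2. At the distance limit, the nearest peaks inside it lay in introns of CG32795, CG5521 and ex, at 2537, 2544 and 2545 bp from a start with signals of 111, 93.7 and 133. The nearest outside it lay in Ubr3, CG1677 and CG12769, at 2428, 2465 and 2468 bp with signals of 63.4, 80.8 and 399.

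The signal of distal intronic peaks had a median of 80.8 (quartiles 67.6 and 107, highest 394), against 70.7 for exonic, 84.4 for intergenic, 92.2 for near intronic and 101 for promoter peaks. The median was thus lower than in every other class but the exonic one. The ranges overlapped, since the other listed peaks together had a median of 93.0 (quartiles 71.5 and 140). In the ranked list of replicate 1, 213 of the 250 had a peak over them, with a median signal of 38.3 (quartiles 31.1 and 56.4), and in that of replicate 2, 245 had one, with a median of 47.2 (36.9 and 61.3). Of the 208 with a value in both, 123 (59.1%) were higher in replicate 2, each on the scale of its own list. The Spearman correlation of the replicates' signals over these 208 peaks was 0.238, and it was 0.574 over the 1047 other listed arm peaks with both values. Both are descriptions of peaks that share 2 libraries. A signal under 20 belonged to 18 peaks, and 17 of these had a stronger listed summit within 330 bp, so that some neighbours share the same ranked peak of a replicate.

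**Figure D1:**
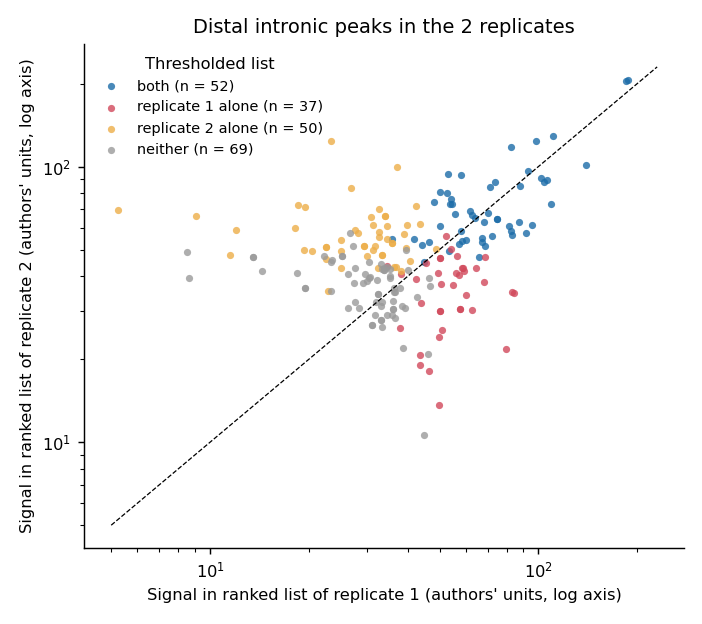
Signal of each distal intronic peak in the ranked list of replicate 1 (x axis) and of replicate 2 (y axis), both in the authors' units on log axes, coloured by the thresholded lists that held the peak; the dashed line marks equal values. Of the 208 peaks with both values, 123 lie above the line. The 52 peaks in both lists lie mostly toward the upper right, with some nearer the middle, such as that of crp at 35.9 and 54.4. The colours come from lists thresholded on the same libraries.

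Fewer of these peaks were in the thresholded lists of both replicates than of the other listed peaks. Of the 250, 52 were in both lists (20.8%, Wilson 95% interval 16.2 to 26.3) and 81 in neither, while the list of replicate 1 alone held 40 and that of replicate 2 alone held 77. The other 1195 arm peaks were in both at 35.1%, an odds ratio of 0.485 (0.349 to 0.673, two-sided Fisher's exact test, p = 7.77e-06). The share was lower than for promoter peaks (40.6%, adjusted p = 7.19e-08) and near intronic peaks (32.8%, adjusted p = 0.00648), and it did not pass against intergenic peaks (26.6%, odds ratio 0.723 with 0.467 to 1.12, adjusted p = 0.267), all by Fisher's exact tests with p adjusted over 6. Exonic peaks, 58 in number, were in both lists at 12.1%. Signal moved with this result. Of the 63 strongest distal intronic peaks (signal 107 to 394), 45 were in both lists, and of the next 63 (80.4 to 107) 6 were. Of the next 62 (67.5 to 80.4) 0 were, and of the weakest 62 (3.24 to 67.5) 1 was. Compared within quartiles of signal, an alternative chosen after seeing the data, the odds ratio was 0.704 (0.442 to 1.12, exact conditional test, p = 0.158), so the call was lost.

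Among peaks in 1 replicate's list alone, replicate 2 held the larger part. Replicate 1 had 40 of 117 distal intronic peaks of this kind (34.2%), against 201 of 452 among the other listed peaks (44.5%), an odds ratio of 0.649 (0.424 to 0.992, two-sided Fisher's exact test, p = 0.0467). The call was lost in the conservative list (47.5% against 58.7%, p = 0.117), among the top 50% of peaks by signal (41.3% against 41.4%, p = 1.0), at 5000 bp from starts (36.2% against 43.2%, p = 0.300) and within GC bins (p = 0.0563), all by exact tests. Near intronic peaks had nearly the same split, with 64.7% in replicate 2 against 65.8% for the distal ones (odds ratio 1.05, 95% interval 0.601 to 1.83). Promoter peaks were split evenly, at 49.6% in replicate 2 (adjusted p = 0.00920, Fisher's exact test).

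**Figure D2:**
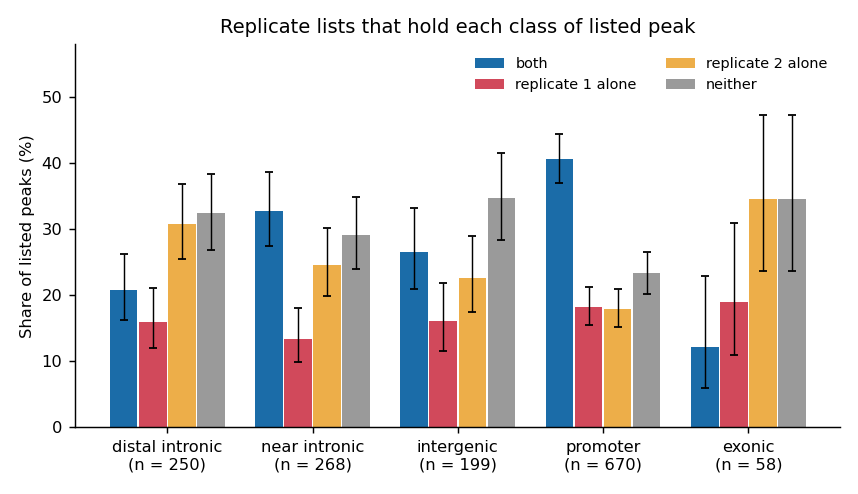
Share of the listed peaks of each class (y axis, %) that were in the thresholded lists of both replicates, of 1 replicate alone or of neither, with Wilson 95% intervals as error bars. Distal intronic peaks were in both lists at 20.8% and promoter peaks at 40.6%.

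The peaks were not spread over the arms as the unlisted distal intronic peaks were. The X held 70 of 250 (28.0%) against 19.9% of unlisted peaks (odds ratio 1.57, 1.19 to 2.07, two-sided Fisher's exact test, p adjusted over 7 arms = 0.0133) and 17.9% of the other listed peaks (adjusted p = 0.00307, Fisher's exact test). Arm 3R held 21.2% against 28.4% of unlisted peaks (adjusted p = 0.0392, Fisher's exact test) and 20.8% of the other listed peaks (unadjusted p = 0.932, Fisher's exact test), and 2L, 2R and 3L, with 41, 45 and 41 peaks, did not pass. The replicates differed in this. With the list of replicate 1 in place of the larger one, 32.4% of distal intronic peaks lay on the X against 19.9% (p = 0.00298, Fisher's exact test). With that of replicate 2 the share was 19.1% against 19.9% (p = 0.919, Fisher's exact test), which turned the direction. Beyond 5000 bp from starts the call was also lost (22.9% against 19.7%, p = 0.344, Fisher's exact test). Of the peaks in the list of replicate 1 alone 18 of 40 were on the X, and of those in the list of replicate 2 alone 12 of 77 were (odds ratio 4.43, 1.85 to 10.6, Fisher's exact test, p = 0.000829). The other listed peaks showed the same order, at 22.4% and 14.7% (p = 0.0377, Fisher's exact test). Of the distal intronic peaks in neither list 26 of 81 were on the X (32.1%) against 13.9% of other listed peaks in neither, and of those in both lists 14 of 52 were (26.9%) against 20.7%, which were not tested. These counts include weak summits on the X that lay over the same replicate peaks as a stronger neighbour also counted. In the list of replicate 1 alone they were in CG43759, Nep1 and Septin4 (signals 4.52, 5.76 and 7.02). In that of replicate 2 alone there was one in mew (3.24). The tests thus count some replicate peaks more than once. The comparison by arm was added after seeing the data.

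Within the genes, distal intronic peaks lay more often in first introns. Taking the shortest annotated intron around each summit, 132 of 250 were in a first intron (52.8%, 46.6 to 58.9), against 31.6% of the 38487 unlisted distal intronic peaks, an odds ratio of 2.42 (1.88 to 3.10, two-sided Fisher's exact test, p = 6.59e-12). With the replicates' own lists the share was 50.5% for replicate 1 and 59.2% for replicate 2. Listed peaks also lay nearer to starts, with a median distance of 5752 bp (quartiles 3783 and 10579) against 8469 bp. Compared within bins of distance (to 5, 10 and 20 kb and beyond), an alternative chosen after seeing the data, the odds ratio was 2.05 (1.59 to 2.65, exact conditional test, p = 2.73e-08).

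The nearest transcript start belonged to a gene that holds the summit for 161 of the 250 (64.4%), against 50.2% of unlisted peaks (odds ratio 1.79, 1.38 to 2.33, Fisher's exact test, p = 7.89e-06), a comparison added after seeing the data. Among peaks in first introns the shares were 77.3% and 69.4%, and among those in later introns 50% and 41.3%. Intron length did not pass the test. The introns had a median length of 14042 bp, and 65.2% of the peaks were in introns of 10 kb or more against 68.3% of unlisted peaks (odds ratio 0.869, 0.669 to 1.13, Fisher's exact test, p = 0.306). With a limit of 20 kb the share was lower among listed peaks (36.8% against 44.2%, p = 0.0213, Fisher's exact test). From the 5′ end of the intron, the median place of the summit was 46.6% of the way along it, against 50.9%. Transposons of the annotation held 1 of the 250 summits, against 1.38% of unlisted ones.

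**Figure D3:**
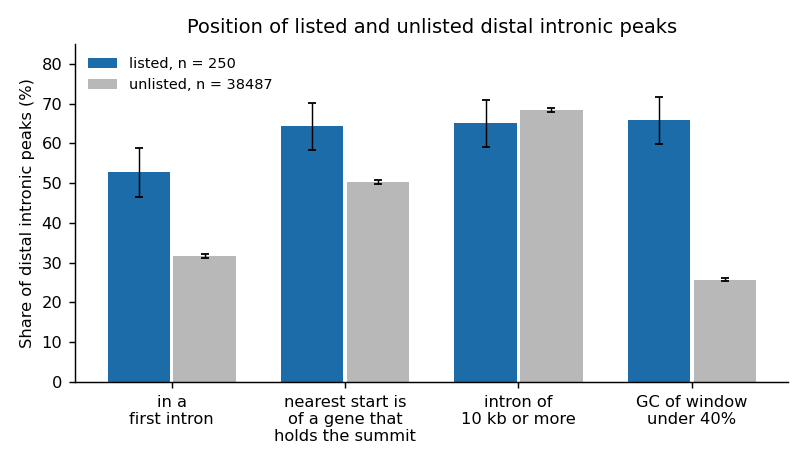
Share of the 250 listed and the 38487 unlisted distal intronic peaks (y axis, %) with each property of position or sequence named on the x axis, with Wilson 95% intervals as error bars. First introns held 52.8% of listed and 31.6% of unlisted peaks, and introns of 10 kb or more held 65.2% and 68.3%.

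The DNA under the summits was poorer in G and C than that of unlisted peaks, and the difference was at the centre. The GC content of the 200 bp window had a median of 37.0% (quartiles 33.0 and 41.5) against 44.5% in unlisted distal intronic peaks and 36% in the other listed peaks, and it was under 40% in 165 of 250 windows (66.0%) against 25.7%. In bins of 50 bp, the mean GC content of listed distal intronic peaks was 35.1% in each bin beside the summit, 40.6% and 40.4% in the next bins out, and 45.4% and 44.6% between 100 and 150 bp. Unlisted distal intronic peaks had 44.3% beside the summit and 43.9% and 43.4% between 100 and 150 bp. The other listed peaks had the same dip, to 35.0% and 34.6%. These are descriptions with no test.

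ACAGTG stood on the shoulders of that dip. The word was in 59 of the 250 windows of 200 bp (23.6%), against 7.67% of unlisted distal intronic peaks and 8.16% of all ranked arm peaks. Compared within GC bins of 5 percentage points, the odds ratio was 3.79 (2.82 to 5.11, exact conditional test, p = 6.72e-15, adjusted over all hexamers 1.40e-11). By bins of 50 bp, 4.40% and 2.80% of the listed peaks had the word beside the summit, 12.4% and 8.80% had it 50 to 100 bp away, and 6.80% and 5.20% had it 100 to 150 bp away, where unlisted peaks held it at 2.01% to 2.14% in each of these bins. Among the peaks with the word in the window, its nearest copy lay within 50 bp of the summit in 18 of 59 (30.5%), against 53.0% of the unlisted peaks with it (odds ratio 0.389, 0.223 to 0.681, Fisher's exact test, p = 0.000843). That test had no adjustment for GC content. The other listed peaks had the same pattern, with 34.9% within 50 bp (odds ratio 0.820, 0.445 to 1.51, Fisher's exact test, p = 0.547). They held the word at 9.96% and 9.62% in the bins 50 to 100 bp away. Compared with unlisted peaks within GC bins, the odds ratio was 4.01 (2.99 to 5.37) between 50 and 150 bp from the summit and 2.30 (1.39 to 3.8) within 50 bp, with overlapping intervals. Beyond 150 bp it was 1.46 (0.974 to 2.18, p = 0.0732, exact conditional test). The comparisons by distance from the summit were added after seeing the data.

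**Figure D4:**
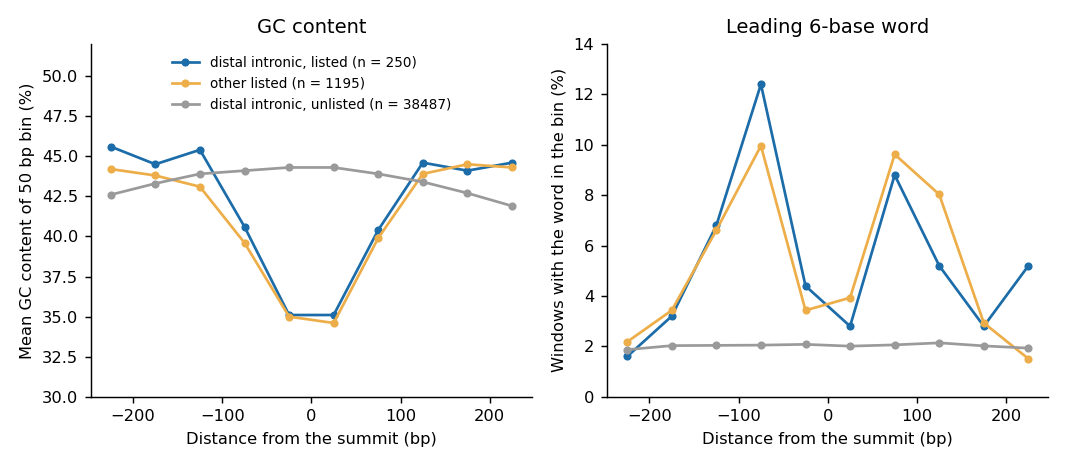
Left, mean GC content (y axis, %) in bins of 50 bp by distance from the summit (x axis, bp); right, share of windows (y axis, %) with the leading hexamer in each bin, for the 250 listed distal intronic peaks, the 1195 other listed arm peaks and the 38487 unlisted distal intronic peaks. GC content falls to 35.1% beside the summit in the listed distal intronic peaks, and the word is most frequent, at 12.4% and 8.80%, in the bins 50 to 100 bp away.

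ACAGTG was present over the whole range of signal, and more often in the stronger peaks. It was in 6 of the 15 strongest distal intronic peaks, in 21 of the 63 strongest and in 11 of the 62 weakest. The median signal was 88.5 in peaks with the word and 77.8 in the rest, and 30.5% and 17.8% of them were in both replicates' lists. With the replicates' own lists, 26.7% of distal intronic windows of replicate 1 and 25% of those of replicate 2 held the word. The other listed peaks held it at 21.6%, and the odds ratio against them was 1.08 (0.782 to 1.5, exact conditional test, p = 0.615).

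Of all hexamers, 40 differed between listed and unlisted distal intronic peaks at an adjusted p under 0.05 (1.92% of those tested), 30 of them higher in listed peaks and 10 lower. After ACAGTG the words with the smallest p were CAGTGG (19.6% against 11.0%, odds ratio 2.91), CACTGA (20.4% against 8.68%, 2.68), ACACTG (18.8% against 7.85%, 2.68) and CAGTGC (19.6% against 10.3%, 2.51). These words overlap one another in letters, so they are not separate results. Any of the 5 was in 134 of the 250 windows (53.6%) against 28.9% of unlisted ones. Lower words were AATTTC (16.8% against 22.0%, odds ratio 0.524), CGGAAA (4.8% against 13.4%, 0.371), CAGGAC (0.800% against 8.60%, 0.140), CGTTAA (1.60% against 5.99%, 0.230) and AAAGCC (6.40% against 15.2%, 0.437). The adjusted p of the named words ranged from 1.40e-11 to 0.0382 (exact conditional tests). Of the 5 higher words, 3 also passed with either replicate's own list. CACTGA (odds ratio 1.87, adjusted p = 0.348) and CAGTGC (1.92, adjusted p = 0.299) did not with that of replicate 2, and the 5 lower words passed with neither list, by the same exact conditional tests.

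Against the other listed peaks, 0 hexamers passed (0% of those tested), and 114 had an unadjusted p under 0.05 by the same exact conditional test. By smallest p, the words higher in distal intronic peaks were AGCTTC (13.6% against 6.11%, odds ratio 2.51, adjusted p = 0.269 by the exact conditional test), CTTCCA (2.20), GGGGCA (2.33), AGAAAA (1.59) and CGAAGC (2.20). The lower words with the smallest p were CGTTAA (1.60% against 7.20%, odds ratio 0.212, adjusted p = 0.297 by the exact conditional test), CCGATA (0.175), CGATAG (0.340), GAGACC (0.0936) and AATTTC (0.578). With windows of 500 bp, 11 passed.

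TAATTA, the core bound by homeodomains, did not pass within GC bins. It was in 43 of the 250 windows (17.2%), against 12.2% of unlisted distal intronic peaks and 9.94% of all ranked arm peaks, and within GC bins the odds ratio was 1.01 (0.720 to 1.41, exact conditional test, p = 0.932). Without GC bins it was 1.49 (adjusted p = 0.0520, Fisher's exact test). In bins of 50 bp it was most frequent beside the summit, at 4.8% and 6.0% against 3.40% and 3.49%, with no adjustment for GC content. AATATT, which has the same letters in another order, was in 32.0% against 13.2% and passed within GC bins (odds ratio 1.76, 1.33 to 2.31, p adjusted over 18 panel words = 0.000725). That call was lost with the list of replicate 1 (28.6%, odds ratio 1.59, adjusted p = 0.280), in the conservative list (1.66, adjusted p = 0.0655) and in 100 bp windows (1.35, adjusted p = 0.442), by exact conditional tests. The further reordered words, ATTAAT with an odds ratio of 0.993 and TTATAA with 1.00, did not pass. With the replicates' own lists, TAATTA was in 10.5% of the windows of replicate 1 and in 17.8% of those of replicate 2.

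Among the 18 panel words, 3 passed against unlisted distal intronic peaks (16.7%). ACAGTG was among them, higher as above, and its test is the one already given from the comparison of all hexamers. The panel was chosen with earlier results of these data known, so the pass of ACAGTG here is not a separate result. The others were AATATT, higher as well, and a lower word. This was the CA repeat CACACA (11.2% against 21%, odds ratio 0.574, adjusted p = 0.0262, exact conditional test). It did not pass with either replicate's own list (odds ratios 0.699 and 0.844), and the direction turned in windows of 500 bp (1.13). The GATA core TGATAA (18.4% against 9.95%, odds ratio 1.47) and the GAGA factor site GAGAG (25.2% against 23.3%, 1.39) had an adjusted p of 0.106 each and did not pass. TGATAA passed with the list of replicate 2 (23%, adjusted p = 0.00850) and GAGAG with that of replicate 1 (32.4%, adjusted p = 0.0246), both by exact conditional tests. Further homeodomain words were TAATTG with an odds ratio of 0.940, TAATCC with 1.08 and TTTATG with 0.825. The E-boxes CAGCTG and CAGGTG had 1.02 and 1.30, the Zelda site CAGGTAG 1.67, the nuclear receptor core AGGTCA 1.21, the M1BP core GTCACACT 0.959 and the Su(H) site GTGGGAA 0.441, and their intervals all included 1. The DNA replication-related element TATCGATA was in 0 of 250 windows, which allows a share of up to 1.20%, against 2.01% of the other listed peaks (p = 0.00798, adjusted p = 0.144, exact conditional test).

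The 250 peaks lay in 199 introns, 39 of which held more than 1 and together 90 of the peaks. The host genes, taken as the protein-coding genes whose span holds a summit, numbered 186, which is 8.61% of the 2161 protein-coding genes with a ranked distal intronic peak. Of the peaks, 6 lay in no protein-coding gene and 8 in more than 1. Hosts were long genes, with a median span of 33964 bp and 21 ranked distal intronic peaks, against 17167 bp and 6 for the genes of that background without a listed one. Counts of hosts per gene group are given beside 8.61%, with no test. That share makes no allowance for gene length or for the number of ranked peaks. A group of long genes could thus stand above it for that alone, which was not tested.

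Of the hosts, 141 held 1 distal intronic peak and 12 held 3 or more. The nuclear co-regulator gene sbb held the most, 7 peaks in 1 intron of 49364 bp (2R, 18333178 to 18351853). Their signals ran from 16.4 to 184, with 2 in both replicates' lists, 2 in that of replicate 1 alone and 1 in that of replicate 2 alone. Those of replicate 1 alone (65.5 and 16.4) overlapped and lay over the same peak of that replicate. The GATA cofactor gene ush held 5 (2L, 484281 to 521021) with signals from 66.6 to 108, of which 0 were in both lists.

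The hosts with 4 peaks were Raf, Pdp1, mew and Tet. Raf held its peaks in 1 intron of 43637 bp, with signals of 192, 106, 83.5 and 68.2 in the larger list, and each of the 4 had another standing in the replicates' lists (both, replicate 1 alone, replicate 2 alone and neither). None of the 4 peaks of Pdp1, a bZIP transcription factor gene of the circadian clock, had a ranked peak of replicate 1 over it, and their signals in replicate 2 were from 36.5 to 82.7. Those of mew, an integrin gene, and Tet, a gene of the TET dioxygenase family, reached 87.1 and 80.4, and 0 of them were in both lists.

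With 3 peaks each followed Lim3, msn, CG14434, CG43759, hth and NetA. The peaks of msn, a Ste20 kinase gene, included 2 in both lists, which were a summit with a signal of 144 and a neighbour of 4.75 over the same replicate peaks. CG43759 had all 3 in the list of replicate 1 alone, and those of 81.6 and 4.52 lay over the same replicate peaks. In Pdp1, mew, Tet, CG14434 and hth as well, the weakest peak lay over the same replicate peaks as a stronger neighbour, so the counts per gene include shoulders. The peaks of hth, the homeodomain cofactor of Hox proteins, reached 78.8, and those of NetA, a Netrin guidance cue, reached 76.4.

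**Figure D5:**
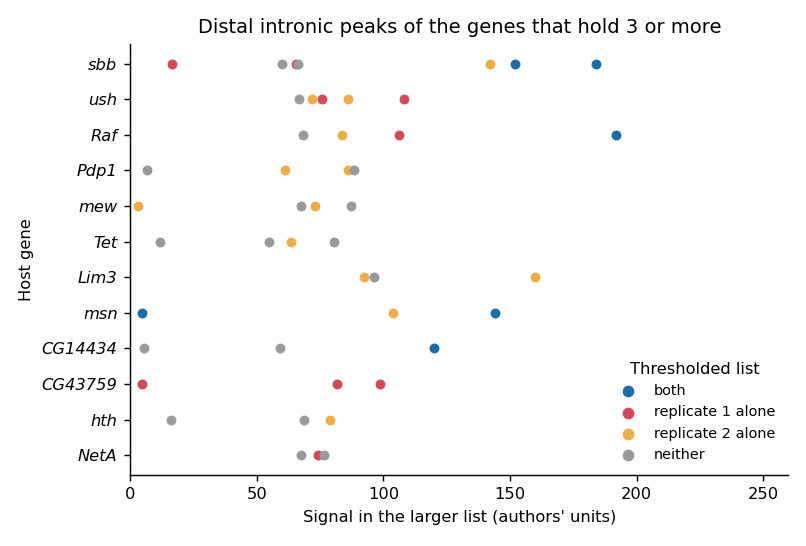
Signal in the larger list (x axis, authors' units) of each distal intronic peak in the 12 host genes with 3 or more (y axis), coloured by the thresholded lists of the replicates that held it. The peaks of sbb run from 16.4 to 184, and the peaks of ush, Pdp1, mew, Tet, Lim3, CG43759, hth and NetA include none in both lists.

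Lim3 itself held 3 distal intronic peaks in its first intron of 23728 bp. The first (2L, 19087226 to 19087555) had signals of 92.5, 39.6 and 50.6, and the second (2L, 19096461 to 19096790) had 96.2, 39.6 and 49.7. The third (2L, 19098798 to 19099127) had 160 in the larger list, with 124 in replicate 2, at rank 116, and 23.4 in replicate 1, at rank 6688. The replicates were thus close at the first and second peak and far apart at the third, and 0 of the 3 were in both thresholded lists. None of the windows held TAATTA or ACAGTG, and their GC contents of 52.5%, 49.5% and 50% were above the median of 37.0%. Inside the span of Lim3 the thresholded list of replicate 1 held 3 peaks, with signals up to 37.0, and that of replicate 2 held 5. Those of replicate 1 overlapped none of the distal intronic peaks described here. Within 10000 bp of the gene the larger list held 11 peaks, or 224 per Mb, where the arms held 10.5 per Mb. With other lists there were 4 (81.3 per Mb) for replicate 1, 8 (163 per Mb) for replicate 2 and 6 (122 per Mb) in the conservative list, and the 11 include weak summits of 10.5 and 10.8 beside stronger ones. The flies carried an insertion targeting Lim3, the number of copies of the locus was not measured here, and its part in these values was not tested.

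Genes of signalling pathways had shares of hosts above 8.61%, a background that does not allow for gene length. Of the Wnt, Hedgehog, BMP and FGF genes, 9 of 27 with a ranked distal intronic peak were hosts (33.3%). Among the ligands dpp, the BMP, had a peak with signals of 99.0, 44.2 and 52.1 in the larger list and the ranked lists of replicates 1 and 2, and it was in both thresholded lists. The peak of pyr, an FGF, had 86.8, 18.2 and 59.8. Among receptors fz, the Wnt receptor, held 2, of which the stronger had 98.8 and 71.9 and no ranked peak of replicate 1. Inhibitors of these pathways were hosts as well. The peak of sog, an extracellular BMP antagonist, had 84.7, 46.7 and 36.9, and that of Dad, the inhibitory Smad, had 76.9, 32.5 and 42.7. The remaining hosts were arr, nkd, shn and bnl, and of the 9 genes 1, dpp, had a peak in both lists.

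Of the Notch and EGFR pathway genes, 7 of 23 were hosts (30.4%), and 4 of these had a peak in both lists. They were aos and Raf, described above, mam, the co-activator of Notch, and N, the Notch receptor. The stronger of the 2 peaks of mam had signals of 157, 87.2 and 63.0, and that of N had 119, 68.9 and 51.4. Replicate 1 was the higher at both. The other hosts were rl, aop, an Ets repressor of the pathway (signal 52.9), and puc, a phosphatase of the JNK pathway (signal 19.2). The peak of puc was in neither thresholded list. It had no ranked peak of replicate 1 over it and a signal of only 8.8 in replicate 2, at rank 79083.

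Of the steroid and nuclear hormone receptor genes, 4 of 14 were hosts (28.6%), and 3 of them had a peak in both lists. Besides Hr3 and Hr4 these were Eip74EF, an ecdysone-induced Ets factor, with signals of 134, 52.6 and 80.5, and ftz-f1, a nuclear receptor, with 91.0 and 45.9 and no ranked peak of replicate 1. On a list of Polycomb and chromatin genes, which does not hold JIL-1 or simj, 3 of 14 were hosts (21.4%). These were sbb, the Polycomb group gene Psc (141 and 85.8, with no ranked peak of replicate 1) and gpp, the histone H3 methyltransferase of the Dot1 type, whose stronger peak had 107, 50.1 and 60.8.

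Muscle and mesoderm genes were hosts in 7 of 24 (29.2%). The peak of nau, the MyoD homologue, had signals of 97.0, 41.9 and 54.7 and was in both replicates' lists. For kirre, which encodes an immunoglobulin protein of myoblast fusion, the peak in an intron of its own had 62.2, 31.8 and 28.9 and was in neither list. A stronger peak within its span (111, 57.5 and 52.3, in both lists) lay in an intron of CG32795. The stronger peak of Mef2, a transcription factor of muscle, had 75.2, 33.4 and 47.9, and how and kn had peaks of 71.5 and 66.9.

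Neural gene groups had shares on both sides of 8.61%. Axon guidance and cell adhesion genes were hosts in 10 of 72 (13.9%), led by ed, an adhesion molecule of the immunoglobulin family (137, 54.3 and 76.6), and Fas3, a homophilic adhesion molecule (136, 50.3 and 80.9), each with a peak in both lists. Then came kirre, the axon guidance semaphorin Sema1a (86.0, 32.7 and 55.7, in the list of replicate 2 alone) and NetA. Ten-a, unc-5, drl, mbl and sns were the other hosts on the list used for this group. Of its hosts, kirre, mbl and sns also stand on the muscle and mesoderm list and are counted there too. Neuronal identity transcription factors were hosts in 2 of 32 (6.25%, hth and kn), near the background. Glial genes, synapse and pan-neuronal genes, ion channel genes and neuroblast temporal and division genes were hosts in 0 of 8, 0 of 17, 0 of 31 and 0 of 17. Motor neuron transcription factors were hosts in 1 of 7, Lim3 alone, and LIM homeodomain genes and cofactors in 2 of 8, with Bx, an LMO protein gene, as the other (66.4, 26.3 and 40.6). Of the remaining groups, GATA factors and their cofactor were hosts in 1 of 5 (ush), Hox genes and cofactors in 2 of 10 (hth and Antp, the latter with 77.8, 34.5 and 43.4) and epidermis and trachea genes in 1 of 15 (sr, an Egr factor of tendon cells, with 72.2, 20.4 and 49.4).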

How the data were processed

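Peak lists from 2 biological replicates of 1 group were used, in dm6 coordinates per the labels. The authors deposited a ranked and a thresholded list for each replicate and for both libraries together. Aligner and peak caller: not given in the sources used here. Each deposited signal is the authors' value, on a scale not given here. The deposited score is scaled from the IDR to at most 1000, and the deposited −log10 IDR stands in the ranked lists. Peaks were placed by the Ensembl annotation (release 115) and release 6 of the genome (RefSeq), transposons excluded. Unlisted peaks are those of the joint ranked list outside every peak of the joint thresholded one. A peak was in a replicate's list when it overlapped a peak there by at least 1 base, and its replicate signal is that of the strongest overlapping ranked peak. Hexamers were sought on both strands of 200 bp windows. Shares were compared with two-sided Fisher's exact tests, words with exact conditional tests over GC bins of 5 percentage points and Mantel-Haenszel odds ratios, adjusted by the Benjamini-Hochberg method. Intervals are 95%. The word test over GC bins, with its adjustment, was tried on simulated data in which each word was drawn independently. The Fisher's exact tests of shares were not tried in this way. Of 506 names in 16 gene lists, 17 matched through a synonym and 10 did not match, and lists share genes. Named genes are the hosts of the 15 strongest peaks, hosts with 3 or more, up to 5 hosts per list, and Lim3; others are named where counts are small. The distal intronic peaks, gene lists and words were chosen with earlier results of these data known. Python 3.11.15 was used with numpy 2.4.6, scipy 1.17.1, pandas 2.3.3 and matplotlib 3.10.9.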

Additional observations from a re-analysis of the deposited data

How the results depend on the processing

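No paired analysis was possible because the study has 1 group. The number of distal intronic peaks (250) was 146 in the conservative list, 100 among the top 50% by signal, 404 at 1000 bp and 144 at 5000 bp from starts, and 105 to 152 in the list of 1 replicate. Host genes (186) were 88 in the top 50%, 305 at 1000 bp, 114 at 5000 bp and 86 to 126 in 1 replicate. The hexamers that differed from unlisted peaks (40) were 16 in the conservative list, 15 in the top 50%, 17 in either replicate's list, 6 at 5000 bp, 1 in 100 bp windows, 84 in 500 bp windows and 313 without GC bins. The settings with fewer peaks test fewer windows. Panel words that passed (3) were 1 in the conservative list and in 100 bp windows and 5 without GC bins. Against other listed peaks, 11 hexamers passed in 500 bp windows. The share in both replicate lists (20.8%) lost its call within signal quartiles. The share of replicate 1 among peaks in 1 list alone (34.2%) lost it in the conservative list (47.5%), the top 50% (41.3%), at 5000 bp (36.2%) and within GC bins. The share in introns of 10 kb or more (65.2%) gained a call at 1000 bp (55.9% against 62.3%) and at 20 kb (36.8%). First introns and the share of listed peaks that are distal intronic kept direction and call in all alternatives run for them. ACAGTG kept its call over all hexamers except in 100 bp windows (odds ratio 2.30, adjusted p = 0.284, exact conditional test). CACACA turned in 500 bp windows (1.13). The X share was 19.1% to 32.4% with the list of 1 replicate, turned without replicate 1 and lost its call at 5000 bp (22.9%). The cause of these changes was not tested. Strata of signal, of distance to starts and of GC content for shares, and the X and nearest-start shares, were chosen after seeing the data. Depth is unknown, so no limit from depth can be given.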
